A study of Mus musculus with 20 samples.

Results

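Txnip and Arrdc4, a pair of glucose-responsive genes, were followed over the 5 groups of the series together with Mlxip, Mlxipl and Mlx, which encode the transcription factors that act on them. The 5 genes were taken by symbol from the 21963 gene entries of the count table, and each matched 1 entry. Of the 5, 4 passed the filter on low counts and were fitted with 11707 genes in all; Mlxipl did not pass. Txnip and Arrdc4 were chosen by their measured levels in these same libraries, so their levels and fold changes are a description with an error and carry no p-value. Mlxip, Mlx and the genes of related pathways were tested. They too were chosen with earlier results of these data known, so their p-values and counts of calls are not independent of the choice.

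TXNIP (thioredoxin-interacting protein) is an α-arrestin that binds and inhibits thioredoxin and restrains glucose uptake by promoting the removal of glucose transporters from the cell surface, and ARRDC4 is its closest relative among the α-arrestins and also limits glucose uptake. MondoA (encoded by Mlxip) and ChREBP (encoded by Mlxipl) sense glucose 6-phosphate, pair with MLX (encoded by Mlx) and bind carbohydrate response elements in promoters, each a pair of E-box-like sites. Both α-arrestin genes are textbook targets of these factors, and the products feed back on the glucose supply that the factors read.

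RNA was sequenced from 20 libraries of bone marrow-derived macrophages (BMDMs), cells grown from mouse bone marrow in L929-conditioned medium. WT BMDMs were untreated (n = 4), given zymosan for 3 h (n = 5) or given zymosan for 3 h with BAPTA-AM (n = 4). Mcu-/- BMDMs were untreated (n = 4) or given zymosan for 3 h (n = 3). The study's other stimulations of BMDMs used 2 zymosan particles per cell and 10 µM BAPTA-AM, and no separate dose is given for the sequenced cells. Zymosan is a yeast cell wall particle that engages Toll-like receptor 2 and dectin-1, BAPTA-AM is a cell-permeant chelator of cytosolic Ca2+, and Mcu encodes the pore of the mitochondrial Ca2+ uniporter. The Mcu-/- cells came from mice in which a floxed Mcu is deleted by Cre under the Cx3cr1 promoter, which acts in myeloid cells. The paper states that the sequenced macrophages of both genotypes came from young mice, and its young mice were 15 to 25 weeks old. No group received BAPTA-AM without zymosan, and none combined BAPTA-AM with Mcu loss. The labels call the libraries of a group biological replicates without naming the animals, so the errors measure the spread between these libraries.

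The libraries held 14420402 to 23954552 counts. Mcu itself lay at 6.10 to 9.55 CPM (counts per 1000000, TMM-scaled) in the 13 WT libraries and at 2.63 to 4.05 CPM in the 7 Mcu-/- libraries. Mcu-/- untreated replicate 4 stood apart: the chi-square per gene against the other libraries of its group was 212 to 220 in its 3 pairs and 1.60 to 6.33 in the 28 other within-group pairs. The summed level of 8 macrophage markers was 8556 CPM in it and 14420 to 14780 CPM in the other 3 libraries of its group, but the markers did not move together: it had the lowest Lyz2, Adgre1, Itgam and Cd14 of its group and the highest Cd68 (971 CPM against 251 to 259 CPM), Fcgr1, Mertk and Csf1r. The summed level of 5 fibroblast markers was 25.3 CPM in it against 0.621 to 1.64 CPM, almost all of it Col1a1 (13.0 CPM) and Col1a2 (12.1 CPM). Values without it are given for part of the results. All groups share 1 estimate of spread, so this library also enters the errors and calls of comparisons that do not hold its group. Without it the SE of the Arrdc4 log2 fold change was 0.07 for zymosan in WT (0.20 with it) and 0.05 for BAPTA-AM (0.17 with it). In the zymosan-treated groups, the macrophage sum was 16080 to 16390 CPM in WT and 10410 to 10770 CPM in Mcu-/-, but the markers again differed: Lyz2, Adgre1 and Itgam were lower in Mcu-/-, Cd68, Csf1r, Fcgr1 and Cd14 were higher, and Mertk did not pass the test (log2 fold change 0.33). Without Mcu-/- untreated replicate 4, which is in neither group, Mertk passed it as higher. Of the 5 fibroblast markers, Col1a1 (21.7 against 2.03 CPM) and Col1a2 (23.2 against 2.19 CPM) were higher there, Dcn and Pdgfra were under 1 CPM and Lum was at 0. The other lists summed to at most 11.5 CPM in any library, and 2 of the 8 neutrophil markers were at 0 in Mcu-/- with zymosan. Mcu-/- untreated replicate 4 and Mcu-/- with zymosan thus shared lower Lyz2, Adgre1 and Itgam. They also shared higher Cd68, Csf1r, Fcgr1, Col1a1 and Col1a2, while Cd14 went opposite ways. Leaving out that library does not take these differences out of Mcu-/- against WT under zymosan. The part of these shifts in the results below was not tested, and in bulk RNA fewer cells of a type and less RNA per cell cannot be told apart.

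Txnip (ENSMUSG00000038393) lies on the plus strand at chr3:96557957-96561883 and Arrdc4 (ENSMUSG00000042659) on the minus strand at chr7:68736995-68749241 (GRCm38). The 250 bases before each start site (RefSeq, GRCm38.p6) are shown because the factors of this pathway read paired E-box-like sites in promoters. They cover chr3:96557707-96557956 (plus) and chr7:68749239-68749488 (minus) and are written 5′ to 3′ on the gene's strand. Capitals mark CCAAT on either strand (ATTGG on the minus strand), the E-box CACGTG, and the members of a tandem pair, that is, 2 copies of CACGNG with 5 bases between.
Txnip: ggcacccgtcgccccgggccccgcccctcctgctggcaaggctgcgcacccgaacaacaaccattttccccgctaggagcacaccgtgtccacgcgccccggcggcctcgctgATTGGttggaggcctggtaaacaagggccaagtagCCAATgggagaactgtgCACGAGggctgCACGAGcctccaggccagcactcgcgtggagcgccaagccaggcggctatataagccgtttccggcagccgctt
Arrdc4: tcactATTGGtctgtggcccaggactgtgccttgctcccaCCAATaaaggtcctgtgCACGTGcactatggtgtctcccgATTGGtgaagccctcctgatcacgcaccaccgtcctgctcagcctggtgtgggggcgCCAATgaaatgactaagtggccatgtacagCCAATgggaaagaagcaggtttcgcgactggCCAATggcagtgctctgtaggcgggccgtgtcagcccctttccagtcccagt

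The Txnip window held 1 tandem pair, which starts 85 bases before the start site, preceded by a CCAAT box on each strand. A tandem pair occurs in 16 of 32851 RefSeq promoter windows of 300 bases (0.049%; both strands searched), and CCAAT in 37.4%. The Arrdc4 window held no such pair but 1 E-box, 193 bases before its start, and 6 CCAAT boxes, and 7.15% of all windows hold that E-box. Of the factors, Mlx and 1 of the 2 Mlxipl windows also held 1 E-box, and Mlxip held neither an E-box nor a pair. A match is a description of the letters in these windows, and elements farther away were not searched.

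**Figure D1:**
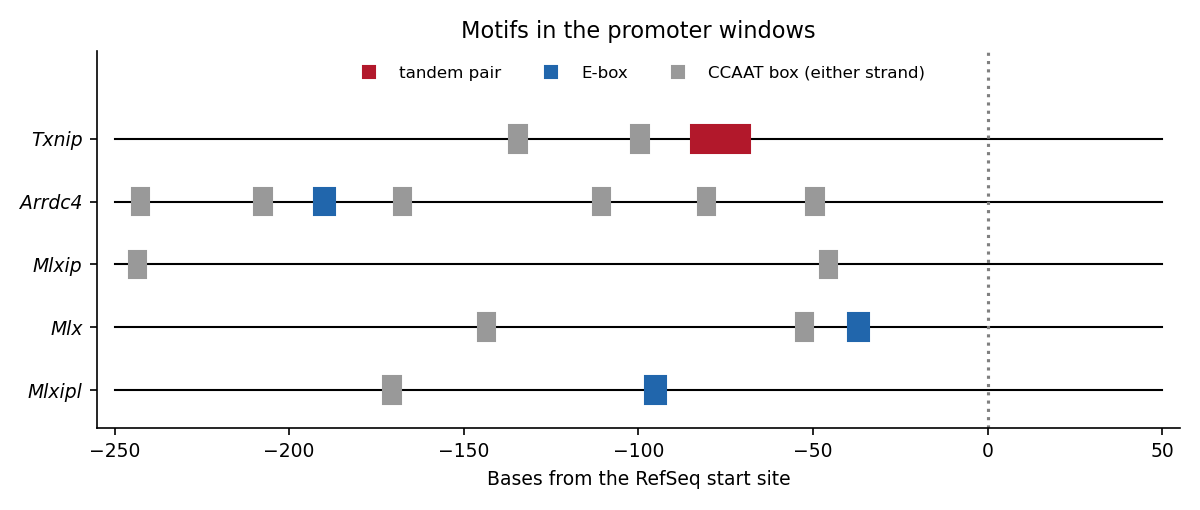
Positions of the motifs in the promoter windows of the 5 genes, from 250 bases before to 50 bases after the RefSeq start site (x axis, bases; boxes to scale; for Mlxipl the window that holds motifs). Red marks the tandem pair found in Txnip only among the 5, blue the E-box CACGTG and grey CCAAT on either strand, of which Arrdc4 holds 6.

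Zymosan was accompanied by a lower level of Txnip and a higher level of Arrdc4. In untreated WT BMDMs, Txnip stood at 255.9, 270.5, 268 and 278 CPM (268 ± 9.14, SD, n = 4). With zymosan the 5 WT libraries read 149.9, 143, 140.1, 174 and 151 CPM (152 ± 13.4, n = 5), all below the untreated ones, a level 1.77-fold lower. Arrdc4 went the other way. It stood at 8.18, 7.76, 7.36 and 7.07 CPM in untreated WT (7.59 ± 0.486) and at 71.3, 68.8, 68.5, 60.9 and 59.6 CPM with zymosan (65.8 ± 5.22), 8.67-fold higher. The groups did not overlap for either gene, in a comparison where 32.4% of all genes were called higher and 36.8% lower. How many genes had no overlap was not counted. The fitted log2 fold changes were −0.82 (SE 0.06) for Txnip and 3.11 (SE 0.20) for Arrdc4. Of the 11707 genes fitted, 2060 had a lower log2 fold change than Txnip and 347 a higher one than Arrdc4.

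BAPTA-AM was accompanied by higher levels of both genes. Txnip read 242, 233, 265.7 and 255.1 CPM with zymosan and BAPTA-AM (249 ± 14.2, n = 4), 1.64-fold above zymosan alone, with a log2 fold change of 0.72 (SE 0.06). All 4 libraries lay above the 5 with zymosan alone, and they overlapped the untreated WT libraries. Arrdc4 read 131, 145, 119.5 and 129.8 CPM (131 ± 10.5), 1.99-fold above zymosan alone and 17.3-fold above untreated WT, with a log2 fold change of 1.00 (SE 0.17) against zymosan alone. So with BAPTA-AM Txnip overlapped the untreated level and Arrdc4 lay farther from it than with zymosan alone. In this comparison 170 of the 11707 genes had a larger log2 fold change than Txnip and 64 a larger one than Arrdc4. Of all genes, 6.43% were called higher and 6.33% lower. Both genes were chosen by their levels in these libraries, so these ranks, and those for zymosan, are a description and no test.

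Mcu-/- BMDMs given zymosan held the lowest Txnip of the series. The 3 libraries read 64.8, 64.0 and 62.0 CPM (63.6 ± 1.41, n = 3), 2.38-fold below WT with zymosan, with no overlap and a log2 fold change of −1.25 (SE 0.07). In this comparison 31.8% of all genes were called higher and 30.3% lower. Arrdc4 read 61.4, 65.7 and 63.1 CPM (63.4 ± 2.15), inside the range of WT with zymosan, and its log2 fold change was −0.05 (SE 0.18). Of the 11707 genes, 786 had a lower log2 fold change than Txnip here and 5179 a lower one than Arrdc4. The comparisons of zymosan with untreated WT, of BAPTA-AM with zymosan and of Mcu-/- with WT under zymosan share the 5 WT zymosan libraries, so their values are not independent.

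In untreated Mcu-/- BMDMs, Txnip read 289, 282, 296 and 323 CPM (297 ± 18.1, n = 4; 289 ± 7.16 without replicate 4, n = 3), just above the WT range, with a log2 fold change against untreated WT of 0.15 (SE 0.06; 0.11 without replicate 4). Arrdc4 read 7.84, 7.96, 7.34 and 17.9 CPM (10.3 ± 5.10; 7.71 ± 0.330 without replicate 4), where the highest value is replicate 4 and the other 3 lie within the WT range. Its log2 fold change was 0.42 (SE 0.21) with that library and 0.02 (SE 0.10) without it. Zymosan against untreated within Mcu-/- gave a log2 fold change of −2.23 (SE 0.07) for Txnip and 2.63 (SE 0.20) for Arrdc4, and −2.18 and 3.04 without replicate 4. The zymosan response of Mcu-/- minus that of WT was −1.40 (SE 0.09) for Txnip on the log2 scale, and −1.36 without replicate 4. For Arrdc4 it was −0.48 (SE 0.28), and −0.07 (SE 0.11) without replicate 4.

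**Figure D2:**
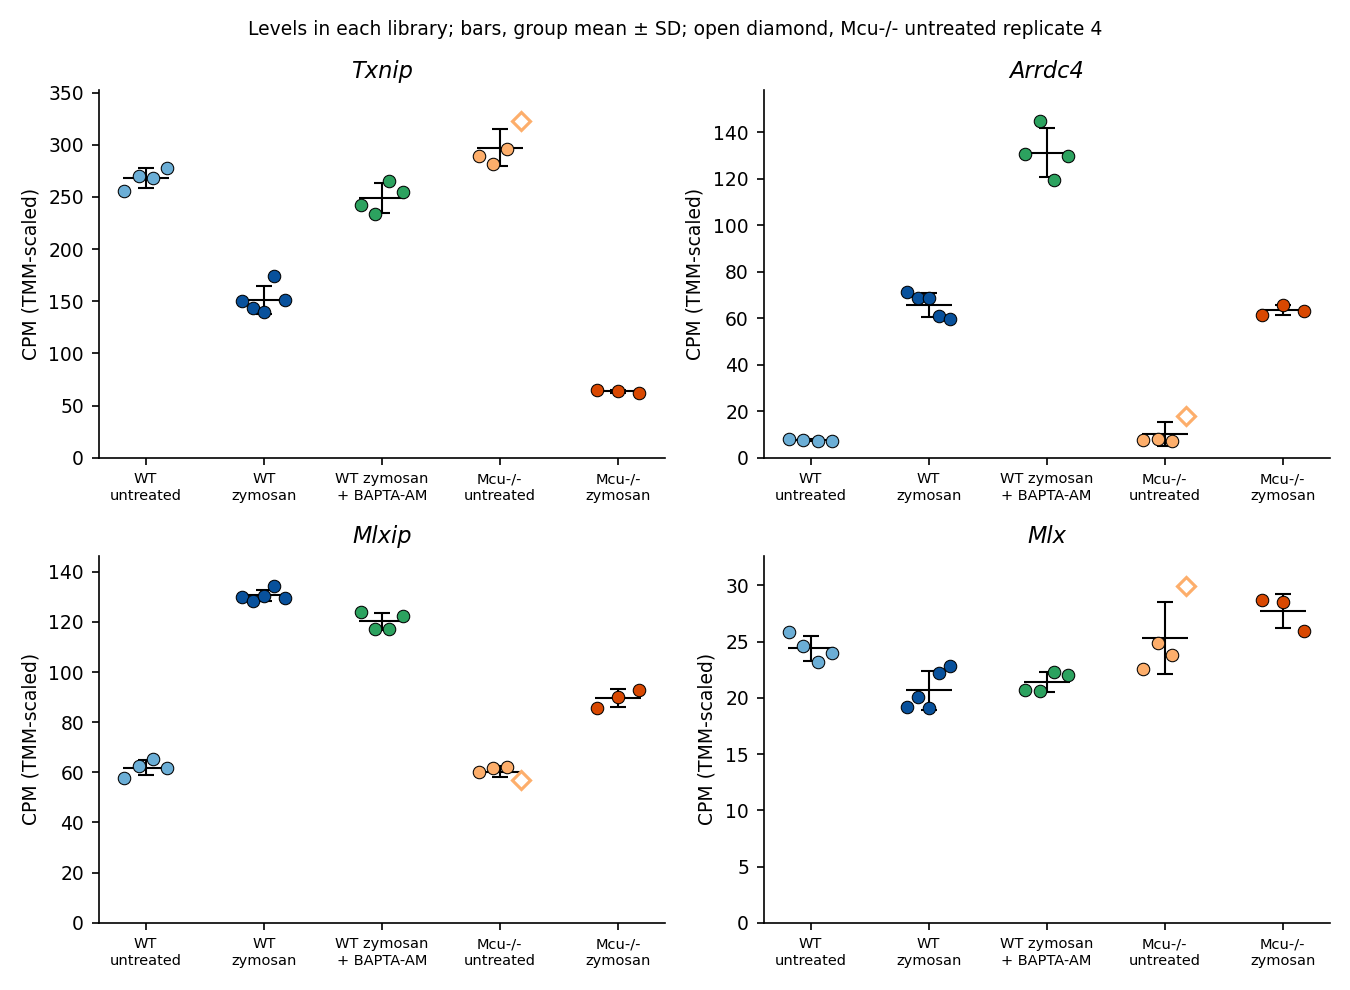
Level of 4 of the genes in each library (y axis, TMM-scaled CPM from 0; points, libraries; bars, group mean ± SD; x axis, the 5 groups). Txnip is lowest in Mcu-/- with zymosan (62.0 to 64.8 CPM), Arrdc4 is highest with zymosan and BAPTA-AM (119.5 to 145.0 CPM), and the open diamond is Mcu-/- untreated replicate 4 (Arrdc4 17.9 CPM).

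In order of level, Txnip ran from Mcu-/- with zymosan through WT with zymosan, WT with zymosan and BAPTA-AM and untreated WT to untreated Mcu-/-. Neighbours in that order did not overlap, except WT with zymosan and BAPTA-AM and untreated WT. How many genes were separated in this way was not counted. Txnip was chosen by these levels, so the order is a description and no test. In untreated Mcu-/- against WT, 0.128% of all genes were called higher and 0.222% lower. The step from untreated WT (at most 278 CPM) to untreated Mcu-/- (at least 282 CPM) was smaller than the SD of either group. Arrdc4 fell into 3 levels: 7.07 to 8.18 CPM in both untreated genotypes, leaving out Mcu-/- replicate 4, then 59.6 to 71.3 CPM in both genotypes with zymosan, then 119.5 to 145.0 CPM with BAPTA-AM. Neither pair of genotypes within the first and the second level was separated for Arrdc4.

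Per kilobase of exon, which allows the 2 genes to be set side by side, untreated WT BMDMs held a median of 46.1 times as much Txnip as Arrdc4 (40.4 to 50.8 over the 4 libraries). The ratio was 2.72 (2.64 to 3.70) with zymosan, 2.47 (2.08 to 2.88) with zymosan and BAPTA-AM and 1.27 (1.26 to 1.36) in Mcu-/- with zymosan. In untreated Mcu-/- it was 46.7, and replicate 4 had the lowest value of the group (23.3). The excess of Txnip over Arrdc4 was therefore large in both untreated genotypes and small in every stimulated group. Ratios with zymosan and with BAPTA-AM overlapped, while the Mcu-/- zymosan libraries lay below all others.

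**Figure D3:**
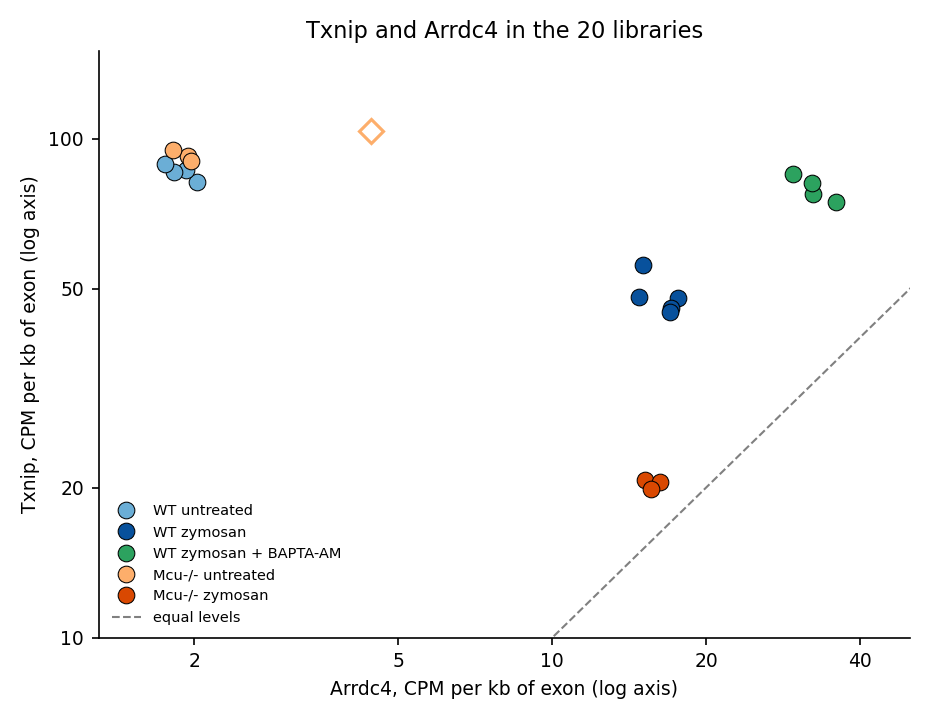
Txnip (y axis) against Arrdc4 (x axis) in the 20 libraries, both in CPM per kilobase of exon on log axes, with colours for the 5 groups and a dashed line of equal levels. WT with zymosan and Mcu-/- with zymosan share the same Arrdc4 range and differ in Txnip (44.9 to 55.8 against 19.9 to 20.7 CPM per kilobase); the open diamond is Mcu-/- untreated replicate 4.

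Among the factors, Mlxip and Mlx were detected and Mlxipl was near 0. Mlxip (chr5:123394798-123457932, plus strand), the gene of MondoA, stood at 57.9, 62.3, 65.5 and 61.9 CPM in untreated WT (61.9 ± 3.12, n = 4) and at 130.0, 128, 130.4, 134 and 129.7 CPM with zymosan (131 ± 2.28, n = 5). It rose by 1.08 on the log2 scale (SE 0.04, adjusted p = 1.28e-14, edgeR's quasi-likelihood test). With BAPTA-AM it read 124, 117, 117 and 122 CPM (120.2 ± 3.45), all below zymosan alone, but the log2 fold change of −0.12 (SE 0.04) had an adjusted p of 0.0509. In Mcu-/- it read 60.3, 61.7, 62.0 and 57.0 CPM untreated (60.2 ± 2.28) and 85.8, 90.1 and 93.0 CPM with zymosan (89.7 ± 3.61). Mlxip thus lay between the untreated and the WT zymosan levels in stimulated Mcu-/- BMDMs. It was lower there than in WT with zymosan (log2 fold change −0.54, SE 0.04, adjusted p = 1.19e-08) and higher than in untreated Mcu-/- (0.57, SE 0.04, adjusted p = 1.18e-09), a call that was lost under scaling by library totals (0.05, adjusted p = 0.364). The untreated genotypes gave −0.04 (SE 0.04, adjusted p = 0.635).

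Mlx (chr11:101087277-101092207, plus strand), the shared partner of both sensors, varied less. It read 25.8, 24.6, 23.2 and 24.01 CPM in untreated WT (24.4 ± 1.11), 19.2, 20.1, 19.1, 22.2 and 22.8 CPM with zymosan (20.7 ± 1.72) and 20.7, 20.6, 22.3 and 22.1 CPM with zymosan and BAPTA-AM (21.4 ± 0.880). In Mcu-/- it read 22.6, 24.9, 23.8 and 30.0 CPM untreated (25.3 ± 3.23; the highest is replicate 4, and 23.8 ± 1.15 without it) and 28.7, 28.5 and 26.0 CPM with zymosan (27.7 ± 1.53). Zymosan lowered Mlx in WT (log2 fold change −0.24, SE 0.08, adjusted p = 0.00836), and Mlx was higher in Mcu-/- than in WT under zymosan (0.42, SE 0.08, adjusted p = 0.000246). BAPTA-AM gave 0.05 (SE 0.08, adjusted p = 0.760) and untreated Mcu-/- against WT 0.05 (SE 0.08, adjusted p = 0.752). Zymosan in Mcu-/- gave 0.13 (SE 0.09, adjusted p = 0.172), 0.22 without replicate 4 (adjusted p = 0.00312) and −0.39 under scaling by library totals. Per kilobase of exon, Mlx and Mlxip stood at 12.2 and 7.43 CPM in untreated WT and at 10.3 and 15.7 CPM with zymosan, so their order was opposite in the 2 groups. Mlxipl (chr5:135089890-135138382, plus strand) drew 0 to 4 counts per library, 27 in all, and was at 0 in 7 of 20 libraries, where a count of 0 allows up to 0.128 to 0.191 CPM (3 counts; counting error only).

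Of the 2 factors tested, 1 was called higher and 1 lower with zymosan in WT, where 32.4% of all genes tested were called higher and 36.8% lower (3790 and 4303 genes; 1834 and 8018 under scaling by library totals). Neither was called with BAPTA-AM, where 6.43% of genes were higher and 6.33% lower, while Mlxip was called lower in 7 of 27 alternative fits. Mlx was called higher and Mlxip lower in Mcu-/- against WT under zymosan (31.8% of genes higher, 30.3% lower), and neither in untreated Mcu-/- (0.128% higher, 0.222% lower). Mlxip alone was called, as higher, with zymosan in Mcu-/- (34.3% of genes higher, 39.4% lower). Scaling by library totals moved the median log2 fold change of all genes by −0.49 for zymosan in WT and by −0.52 in Mcu-/-. Relative to the median gene, Txnip lay at −0.78 and Arrdc4 at 3.16 for zymosan in WT. A change of scaling shifts all genes by nearly the same amount, so these distances could not differ between the scalings.

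Exons of Txnip, Mlxip and Mlxipl overlap those of the antisense genes Gm15441 (606 bases), Gm15747 (267 bases) and Gm43500 (235 bases), and exons of Mlx overlap 385 bases of Psmc3ip. The strand setting of the counting is not given in the sources used here, so reads of such pairs may not have been told apart. Psmc3ip was at 0.883 to 4.81 CPM in the 20 libraries, below Mlx in each.

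**Figure D4:**
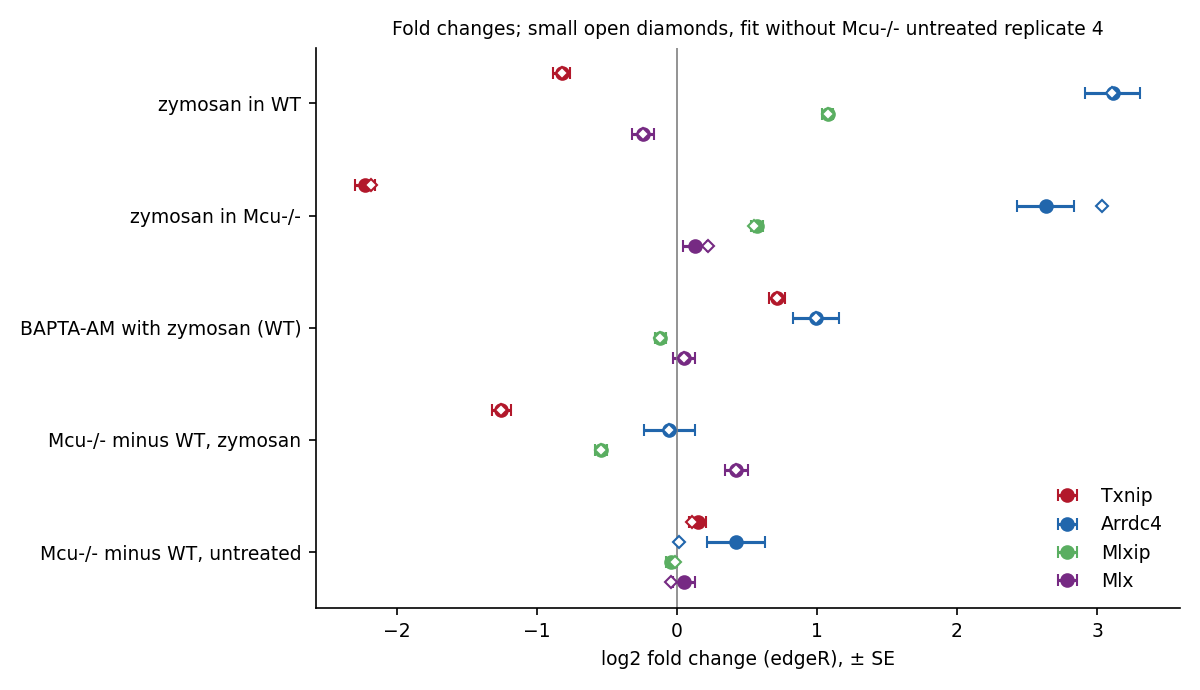
Log2 fold change of Txnip, Arrdc4, Mlxip and Mlx in 5 comparisons (x axis, log2; points, edgeR estimate; bars, SE; small open diamonds, the fit without Mcu-/- untreated replicate 4). Txnip and Arrdc4 lie on opposite sides of 0 for zymosan (−0.82 and 3.11 in WT) and on the same side for BAPTA-AM (0.72 and 1.00), and leaving out the library moves Arrdc4 from 2.63 to 3.04 for zymosan in Mcu-/-.

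The other α-arrestins were lower with zymosan. Arrdc1, Arrdc2 and Arrdc3 were tested, and all 3 fell in WT and in Mcu-/-, where 36.8% and 39.4% of all genes did; under scaling by library totals all 3 also fell, as did 68.5% and 68.3% of all genes. Arrdc5 had no count. Arrdc3, which acts on β-adrenergic receptors, went from 125 CPM to 29.3 CPM in WT (log2 fold change −2.09, SE 0.19, adjusted p = 6.54e-09), and Arrdc2 fell by 1.62 (SE 0.13). Arrdc4 was thus the 1 of the 5 detected α-arrestins whose level was higher with zymosan. BAPTA-AM called 0 of the 3 (0 at an unadjusted p under 0.05 and 0 by DESeq2; 1 higher, Arrdc3 at 0.31, without Mcu-/- untreated replicate 4). In Mcu-/- against WT under zymosan, Arrdc3 was lower by 1.80 (SE 0.24, adjusted p = 5.57e-06; 8.36 CPM) and Arrdc1, which drives the budding of vesicles at the cell surface, by 0.42 (SE 0.12), while Arrdc2 gave 0.28. Txnip, at −1.25, lay between Arrdc3 and Arrdc1. Of all genes, BAPTA-AM called 6.43% higher and 6.33% lower, and Mcu-/- against WT under zymosan 31.8% and 30.3%.

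The NEDD4-family ubiquitin ligases, which α-arrestins bind and bring to their cargo, were higher in Mcu-/- BMDMs under zymosan in 6 of 7 members and lower in 0, where 31.8% of all genes were higher and 30.3% lower. The list counts were the same under scaling by library totals and without Mcu-/- untreated replicate 4. That library is in neither group, and library totals moved the median of all genes here by −0.05. Neither setting could therefore move these estimates much. Nedd4l was higher by 0.92 (SE 0.12), Wwp1 by 0.81 (SE 0.11) and Itch, the ligase that ubiquitinates TXNIP, by 0.60 (SE 0.07, adjusted p = 1.68e-06; 69.3 CPM against 45.8 CPM). In untreated Mcu-/- against WT 0 of the 7 were called (1 lower without replicate 4), and the estimates moved with that library. With and without it, Wwp1 gave 0.22 and 0.01, Nedd4l 0.16 and −0.006, Wwp2 0.15 and −0.05 and Itch 0.11 and 0.006. Smurf1 gave −0.004 and −0.18, Smurf2 −0.07 and −0.14 and Nedd4 −0.11 and −0.05. With zymosan in WT 1 was higher and 2 were lower, Smurf2 by 1.33 (SE 0.05) and Itch by 0.49 (SE 0.06), and under library totals 0 were higher and 6 lower (of all genes, 32.4% higher and 36.8% lower, and under library totals 15.7% and 68.5%). With BAPTA-AM only Itch was called, at 0.28 (SE 0.07, adjusted p = 0.00852). Zymosan raised 5 and lowered 1 in Mcu-/-, and 1 and 2 under library totals, beside 34.3% and 39.4% of all genes (16.0% and 68.3%). BAPTA-AM called 6.43% of all genes higher and 6.33% lower.

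**Figure D5:**
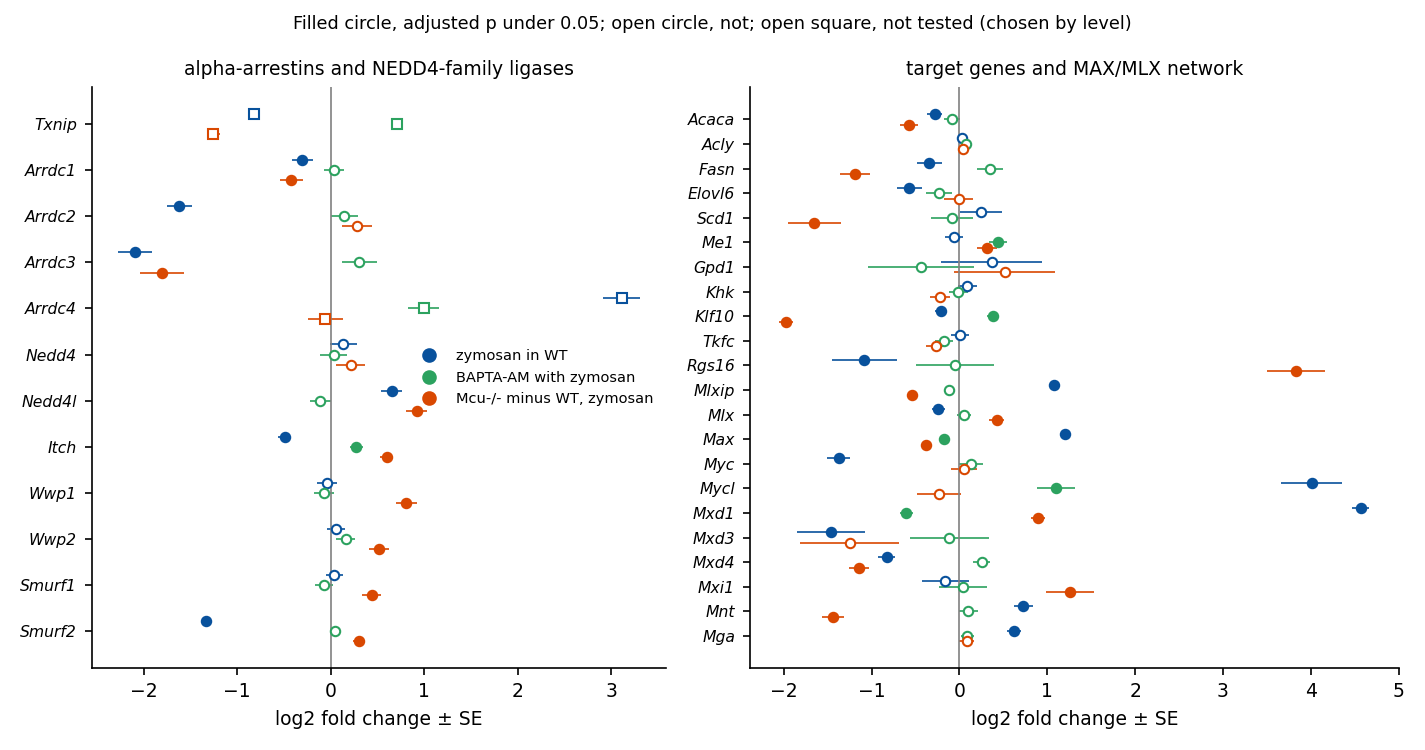
Log2 fold changes ± SE (x axis) of the tested α-arrestins and NEDD4-family ligases (left) and of the other target genes and the MAX and MLX network (right) for zymosan in WT (blue), BAPTA-AM with zymosan (green) and Mcu-/- against WT under zymosan (orange). Filled circles passed an adjusted p of 0.05, and squares are Txnip and Arrdc4, which were not tested; 6 of 7 ligases lie above 0 and filled in orange, and Arrdc4 is the 1 α-arrestin above 0 in blue.

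MLX and MAX share partners in a network of factors that bind E-boxes. Besides Mlxip and Mlx, 9 members were tested, and zymosan in WT raised 5 and lowered 3 (4 and 4 under library totals), beside 32.4% and 36.8% of all genes (15.7% and 68.5%). Mxd1, a repressor that pairs with MAX or MLX, rose from 4.31 to 103 CPM (log2 fold change 4.57, SE 0.10, adjusted p = 3.80e-18). Mycl rose by 4.01 (SE 0.35) from a level near 0 (0.109 to 1.75 CPM). Max rose by 1.20 and Mnt, another repressor that pairs with both, by 0.73. Mxd3 fell by 1.46 (2.77 to 1.01 CPM) and Myc, the MAX partner that drives growth, by 1.37. BAPTA-AM raised Mycl by 1.10 (SE 0.21) and lowered Mxd1 by 0.60 (SE 0.08) and Max by 0.18 (SE 0.04), 1 higher and 2 lower in all. Mcu-/- against WT under zymosan had 2 higher and 3 lower: Mnt was lower by 1.44 (SE 0.12) and Mxd4 by 1.14 (SE 0.12), and Mxi1 was higher by 1.26 (SE 0.28) and Mxd1 by 0.89. Mnt stood at 32.9 CPM in untreated WT, 54.6 CPM in WT with zymosan and 20.2 CPM in Mcu-/- with zymosan. In Mcu-/-, zymosan raised 4 and lowered 4 of the 9, beside 34.3% and 39.4% of all genes. Of all genes, BAPTA-AM called 6.43% higher and 6.33% lower, and Mcu-/- against WT under zymosan 31.8% and 30.3%.

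Glucose entry and the genes around glucose 6-phosphate, the metabolite that MondoA senses, had 18 tested members, of which zymosan in WT raised 10 and lowered 4 (7 and 10 under library totals), beside 32.4% and 36.8% of all genes (15.7% and 68.5%). Slc2a1, the transporter GLUT1 that TXNIP and ARRDC4 restrain, stood at 77.6 ± 6.31 CPM in untreated WT, 206 ± 10.8 CPM with zymosan, 392 ± 22.6 CPM with zymosan and BAPTA-AM and 206 ± 4.41 CPM in Mcu-/- with zymosan. Its order over the WT groups was that of Arrdc4, with a log2 fold change of 1.41 for zymosan (SE 0.10, adjusted p = 3.29e-10) and 0.93 for BAPTA-AM (SE 0.10, adjusted p = 3.52e-06). Slc2a6 (GLUT6) rose by 4.29 with zymosan (SE 0.12) and hexokinase Hk2 by 1.16, while Pfkfb4 fell by 1.38 (SE 0.08). BAPTA-AM had 1 higher and 2 lower, the latter being Hk2 (by 0.46, SE 0.08) and Slc2a6 (by 0.32, SE 0.10). In Mcu-/- against WT under zymosan 4 were higher and 7 lower, beside 31.8% and 30.3% of all genes: Slc2a6 was lower by 0.89 (SE 0.11), G6pdx, which diverts glucose 6-phosphate to the pentose phosphate pathway, by 0.79 (SE 0.07) and Hk2 by 0.39, and Slc2a3 (GLUT3) was higher by 0.84 (SE 0.17). Slc2a1 gave −0.01 there. Without Mcu-/- untreated replicate 4 the counts were 5 higher and 8 lower, beside 36.4% and 33.7% of all genes. Zymosan in Mcu-/- raised 8 and lowered 5 (4 and 10 under library totals), beside 34.3% and 39.4% of all genes (16.0% and 68.3%). BAPTA-AM called 6.43% of all genes higher and 6.33% lower.

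Of the other 20 target genes on the list, many of them liver genes of glycolysis and fat synthesis, 11 were tested, and the pyruvate kinase gene Pklr was among those too low. Zymosan in WT raised 0 and lowered 5 (9 under library totals; 0 raised also at an unadjusted p under 0.05 and by DESeq2), beside 32.4% and 36.8% of all genes (15.7% and 68.5% under library totals): Elovl6 fell by 0.57 (SE 0.14), Fasn by 0.34 and Klf10 by 0.21. BAPTA-AM raised 2 and lowered 0 (0 lower at an unadjusted p under 0.05 and by DESeq2), Me1 by 0.44 (SE 0.10, adjusted p = 0.00782) and Klf10 by 0.38 (SE 0.07). In Mcu-/- against WT under zymosan 2 were higher and 4 lower, beside 31.8% and 30.3% of all genes. Without Mcu-/- untreated replicate 4 the counts were 2 and 6, beside 36.4% and 33.7%. Klf10, a zinc-finger repressor, was lower by 1.97 (SE 0.08, adjusted p = 2.40e-12), at 13.5 CPM against 53.0 CPM. Scd1 was lower by 1.65 (SE 0.31), at 0.636 CPM against 2.02 CPM, and Fasn by 1.19. Rgs16 was higher by 3.83 (SE 0.33), at 5.75 CPM against 0.401 CPM. In WT, Klf10 stood at 61.5 CPM untreated, 53.0 CPM with zymosan and 69.0 CPM with BAPTA-AM. Zymosan in Mcu-/- raised 2 and lowered 4 of the 11 (1 and 8 under library totals), beside 34.3% and 39.4% of all genes (16.0% and 68.3%). Without Mcu-/- untreated replicate 4 it raised 3 and lowered 5, beside 39.2% and 42.4%. BAPTA-AM called 6.43% of all genes higher and 6.33% lower.

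The thioredoxin system, on whose central protein TXNIP acts, rose with zymosan in 8 of 12 members in WT and fell in 0 (4 and 5 under library totals; 0 lower also at an unadjusted p under 0.05 and by DESeq2), beside 32.4% and 36.8% of all genes (15.7% and 68.5% under library totals). Txnrd1, the cytosolic thioredoxin reductase, rose by 1.79 (SE 0.17), Prdx1 by 1.40 (SE 0.22), Prdx5 by 1.11 (SE 0.04) and thioredoxin itself, Txn1, by 0.77, from 166 to 282 CPM. BAPTA-AM called 0 of 12 (1 higher at an unadjusted p under 0.05, 0 by DESeq2; 3 higher and 1 lower without Mcu-/- untreated replicate 4). In Mcu-/- against WT under zymosan 5 were higher and 5 lower, with sulfiredoxin Srxn1 higher by 1.68 (SE 0.31), Prdx1 by 1.04 (SE 0.22) and Prdx6 by 0.97 (SE 0.14). In Mcu-/-, zymosan raised 7 and lowered 4. Without Mcu-/- untreated replicate 4, zymosan in WT raised 9 and lowered 0, beside 37.2% and 41.3% of all genes. The kinases that phosphorylate TXNIP, AMPK subunits and AKT, had 9 tested members. Zymosan in WT raised 2 of them and lowered 5, beside 32.4% and 36.8% of all genes. Among them Prkag2 fell by 0.74 (SE 0.11) and Prkaa1, an AMPK catalytic subunit, by 0.59 (SE 0.06). Under library totals the counts were 0 and 7, beside 15.7% and 68.5% of all genes. BAPTA-AM had 1 higher (Prkab2, 0.56, SE 0.12) and 2 lower, Mcu-/- under zymosan 2 higher (among them Prkaa1 by 0.45, SE 0.07) and 5 lower (Akt2 by 0.55, SE 0.05), and zymosan in Mcu-/- 1 and 6. For both lists, the shares of all genes called higher and lower were 6.43% and 6.33% with BAPTA-AM. They were 31.8% and 30.3% for Mcu-/- against WT under zymosan, and 34.3% and 39.4% for zymosan in Mcu-/-.

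In untreated Mcu-/- against WT, 0 of the 69 other tested genes of the 7 lists were called by edgeR and 0 by DESeq2, and 9 were higher and 5 lower at an unadjusted p under 0.05. Without Mcu-/- untreated replicate 4, 1 target gene and 1 α-arrestin were called higher and 1 target gene and 1 ligase lower, where 1.53% of genes were higher and 1.83% lower. In the zymosan response of Mcu-/- minus that of WT, where 15.2% of all genes were called higher and 20% lower, the counts were 2 higher and 3 lower of 11 targets, 0 and 1 of 3 α-arrestins, 5 and 0 of 7 ligases, 1 and 3 of 9 MAX and MLX factors, 1 and 4 of 12 thioredoxin genes, 2 and 7 of 18 glucose genes and 2 and 4 of 9 kinases. Without Mcu-/- untreated replicate 4, where 31.0% of genes were called higher and 29.3% lower, the counts were 2 and 4 for targets, 0 and 2 for α-arrestins, 6 and 0 for ligases, 2 and 4 for MAX and MLX factors, 4 and 5 for thioredoxin genes, 5 and 8 for glucose genes and 2 and 5 for kinases. The counts of 0 for α-arrestins and ligases, in this and the other comparisons with zymosan, were also 0 at an unadjusted p under 0.05 and by DESeq2.

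For BAPTA-AM, leaving out that library raised the share of all genes called to 15.3% higher and 16.5% lower, and the list counts to 3 higher and 0 lower for targets, 2 and 0 for ligases, 2 and 2 for MAX and MLX factors, 3 and 5 for glucose genes and 1 and 4 for kinases. Library totals gave 2 and 1 for glucose genes, 1 and 0 for kinases, 1 and 1 for MAX and MLX factors and 3 and 0 for targets. Under that scaling 13.4% of all genes were called higher and 4.48% lower. For zymosan in WT, where the median log2 fold change of all genes was −0.04, the list medians were −0.06 for targets, −1.62 for α-arrestins, 0.04 for ligases, 0.62 for MAX and MLX factors, 0.65 for thioredoxin genes, 0.24 for glucose genes and −0.31 for kinases. In Mcu-/- against WT under zymosan, where that of all genes was 0.02, they were −0.22, −0.42, 0.52, −0.23, 0.10, −0.11 and −0.31 in the same order. For BAPTA-AM, with 0.00 over all genes, they ran from −0.08 for kinases to 0.15 for α-arrestins.

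The genes whose pattern was most like that of Txnip were taken by Pearson's correlation of log2(CPM + 1) over the 20 libraries, among 7658 genes whose mean level reached 10 CPM. The libraries fall into 5 groups, so these values are a description of a shared pattern over groups. They were Flcn (folliculin, 0.96), Cnot9 (0.96), Stk11 (the kinase LKB1, 0.96), Nsd2 (0.95) and Snx24 (0.95). Flcn stood at 70.5 ± 2.16 CPM in untreated WT, 43.5 ± 1.71 with zymosan, 64.4 ± 1.84 with BAPTA-AM, 63.8 ± 7.06 in untreated Mcu-/- and 14.8 ± 1.98 in Mcu-/- with zymosan. Without Mcu-/- untreated replicate 4, Flcn and Stk11 were still among the first 5 (Flcn 0.98). For Arrdc4 the first 5 were Tbc1d15 (0.99), the cationic amino acid transporter gene Slc7a1 (0.99), Pitrm1 (0.99), Ncl (nucleolin, 0.99) and Ak4 (0.99). The choice of measure mattered: by Spearman's correlation Cnot9 alone of Txnip's 5 genes was still among the first 5, and 0 of Arrdc4's 5 were. Ak4, a mitochondrial adenylate kinase, stood at 3.37 ± 0.764 CPM in untreated WT, 19.6 ± 2.01 with zymosan, 37.3 ± 4.30 with BAPTA-AM, 4.42 ± 1.83 in untreated Mcu-/- and 24.1 ± 1.07 in Mcu-/- with zymosan. Txnip and Arrdc4 were not alike by this measure: their correlation was −0.46, which put Arrdc4 at rank 4989 of Txnip's list and Txnip at rank 5408 of Arrdc4's. Mlxip correlated with Arrdc4 at 0.90 and with Txnip at −0.38, and by Spearman's correlation at 0.65 and −0.68.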

How the data were processed

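RNA of 20 libraries of BMDMs was sequenced in paired ends. The authors deposited 1 table of gene counts, not normalized, made by adaptor removal (cutadapt), alignment to mm10 (STAR) and counting per gene (HTSeq), with FastQC and MultiQC checks; versions and the strand setting are not given in the sources used here. All 20 count columns were used and 0 were left out. Groups came from GEO's labels; the 3 columns of Mcu-/- with zymosan carry other replicate numbers than the labels and were used as a group.

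Counts were analysed with edgeR 4.0.16 (R 4.3.3): filterByExpr by group, TMM scaling, 1 coefficient per group over all 20 libraries, the quasi-likelihood F test, Benjamini-Hochberg adjustment over 11707 genes and a call at an adjusted p under 0.05; the SE is the absolute log2 fold change divided by the square root of F. The fit was tested on simulated data. CPM are TMM-scaled; values per kilobase use the exon union of GENCODE M21 (GRCm38). With 14420402 to 23954552 counts per library, Txnip rested on at least 1100 counts and Arrdc4 on at least 126. Genes named from each list are at most the 3 called with the largest log2 fold change and at least 1 CPM, plus those whose role is explained. The values of 1 kinase gene are not reported here. The members and the lists were chosen with earlier results of these data known. Alternatives were DESeq2 1.42.0 (its size factors and its Wald test), library totals, other filters, fits of only the groups compared, each library left out and a replicate block. Libraries with the same number in 2 groups showed no clear shared deviation: the correlation of deviations ran from −0.117 to 0.106, above 0.1 in 1 of 24 pairs. The Mcu-/- zymosan libraries were not in this check, and low correlations cannot show that libraries were unpaired.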

Additional observations from a re-analysis of the deposited data

Results flagged for a closer look

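Arrdc4 in untreated Mcu-/- BMDMs had 1 library far from the others of its group, replicate 4 at 17.89 CPM against 7.34 to 7.96 CPM in the other 3. This was 1 of 16 groups of 4 or 5 libraries examined for Txnip, Arrdc4, Mlxip and Mlx, and chance flags about 1 in 20.

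For the factors, the zymosan response differed between genotypes by the interaction term of the edgeR fit (Mcu-/- minus WT, log2): Mlxip by −0.503 (SE 0.06, adjusted p = 5.70e-06), with a rise of 1.08 in WT and 0.57 in Mcu-/-, and Mlx by 0.373 (SE 0.11, adjusted p = 0.0172). Both kept their direction and call in all 26 alternatives, with Mlx at 0.322 to 0.463.

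The same interaction passed the threshold, on the same log2 scale, for genes of the lists, given here by list. Among target genes it was 3.475 for Rgs16 and −2.005 for Klf10, and for the α-arrestin Arrdc3 −1.72. Among ligases it was 0.759 for Nedd4l, 0.59 for Wwp1 and 0.488 for Itch. In the MAX and MLX network it was −1.512 for Mnt, −1.097 for Mxd4 and 0.561 for Mxd1. In the thioredoxin system it was −0.722 for Prdx2, 0.666 for Prdx6 and −0.351 for Prdx4. Among glucose genes it was 0.754 for Slc2a3, −0.662 for Pfkfb3 and −0.615 for G6pdx, and among kinases −0.529 for Akt2 and −0.483 for Prkag1. All were called in the same direction without Mcu-/- untreated replicate 4.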

How the results depend on the processing

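Txnip and Arrdc4 kept their direction in each comparison with zymosan or BAPTA-AM in all alternatives, and their sizes moved with 2 choices. Library totals gave Txnip −1.315 and Arrdc4 2.621 for zymosan in WT, −2.746 and 2.123 in Mcu-/-, and turned Mlx to −0.388 for zymosan in Mcu-/-; they called 1834 genes higher and 8018 lower for zymosan in WT, 1878 and 7999 in Mcu-/-, and 1566 higher for BAPTA-AM. Leaving out 1 library moved the Arrdc4 response of Mcu-/- minus WT between −0.609 and −0.071, the latter without Mcu-/- untreated replicate 4. Leaving out that library also gave the most calls for BAPTA-AM (511 to 1783 genes higher, 525 to 1929 lower over all such fits), for untreated Mcu-/- (5 to 178 higher, 14 to 213 lower) and for the difference of responses (1415 to 3622 higher). The call on Mlxip with BAPTA-AM changed in 7 of 27 alternatives, with adjusted p from 0.00585 to 0.429.

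Fits of only the groups compared called 1741 genes higher and 1788 lower for BAPTA-AM and 2 and 3 for untreated Mcu-/-. DESeq2's Wald test called 57 and 55 in untreated Mcu-/-, and a filter of 10 counts in every library 13 lower. Same-numbered libraries showed no clear shared deviation. With the replicate block, which left out the Mcu-/- zymosan libraries, BAPTA-AM called 418 genes higher and 461 lower and untreated Mcu-/- 6 and 16. Causes were not tested beyond what each setting leaves out. The biological coefficient of variation was 12.4% with all libraries and 3.56% without Mcu-/- untreated replicate 4.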
